A study of Mus musculus with 12 samples.

Results

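The mouse MAP kinase phosphatases described here are the products of 9 genes, Dusp1, Dusp2, Dusp4, Dusp5, Dusp6, Dusp7, Dusp10, Dusp14 and Dusp16, out of 30142 genes that had a named probe set on the array. They were chosen by name, and each had exactly 1 probe set whose annotation gave that gene symbol alone. RNA came from megakaryocytes, the marrow cells that shed platelets, which had been differentiated in culture from bone marrow hematopoietic stem cells of male C57BL/6 mice. Both groups had received thrombopoietin at 100 ng per ml for 3 days and then a night in medium with 10% charcoal-stripped serum, and day 4 cells were purified on an albumin gradient. Cells of each of 6 cultures were then split and kept for 6 h with vehicle or with the synthetic glucocorticoid dexamethasone at 100 nM, which gave 6 arrays per treatment. The sources used here give neither the age of the mice nor whether each culture came from separate mice, and no other genotype or agent is named in the labels. Culture numbers 1 to 6 are the labels' replicate numbers. The cultures behind them are numbered 1, 4, 5, 6, 7 and 8 in the labels.

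MAP kinases (ERK, JNK and p38) are switched on when a threonine and a tyrosine in their activation loop are phosphorylated, and dual specificity phosphatases switch them off by removing both phosphates. Many of these phosphatases are themselves products of early response genes, so that they act as negative feedback, and they differ in which kinase they prefer and in whether they act in the nucleus or the cytoplasm. Thrombopoietin signals through RAS and ERK in megakaryocytes, and Dusp1 is a classical glucocorticoid-induced gene in many cell types.

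Dexamethasone raised 2 of the 9 phosphatase transcripts, lowered 3, and left 4 without a change that passed the test. Dusp1 rose 4.45-fold and Dusp10 rose 1.43-fold, both encoding phosphatases that act on p38 and JNK. Dusp4, Dusp6 and Dusp14 fell 1.54-fold, 1.28-fold and 1.23-fold. Dusp2, Dusp5, Dusp7 and Dusp16 did not pass. All 9 genes passed the filter on dim genes, and a gene was called at a Benjamini-Hochberg adjusted p under 0.05 from limma with culture as a block. Among the 24265 genes tested, 12.0% were called, 7.39% as higher and 4.56% as lower. Higher genes made up 61.9% of those calls, and 44.9% after quantile normalization, while the 5 member calls stood under both. The higher calls over all genes fell from 1794 to 1163 without culture 3 and to 1177 without culture 4, and the lower ones from 1106 to 713 without culture 3 and to 711 without culture 6. In absolute terms the median log2 change was 0.30 for the 9 members and 0.08 for all genes tested. With the filter on dim genes at the 50th percentile of the array, 20.4% of genes were called. At the negative control median the share was 26.3%, and the 5 member calls stood under both filters. How far brightness accounts for the difference between members and all genes was not tested. Since the array measures RNA of the whole culture, fewer cells of a type and less RNA per cell cannot be told apart.

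The promoters of the risers Dusp1 and Dusp10 and of Dusp6 and Dusp14, which fell, are shown to let their start regions be compared. RefSeq's table for GRCm38.p6 gave a promoter for 8 of the 9 genes, these included, and none for Dusp4. The promoters of Dusp2, Dusp5, Dusp7 and Dusp16 were searched but are not printed. The 250 bases before the annotated start are printed 5′ to 3′ on the gene's own strand, and capitals mark a match to any motif searched on both strands.
Dusp1 promoter, chr17:26508473-26508722, minus strand: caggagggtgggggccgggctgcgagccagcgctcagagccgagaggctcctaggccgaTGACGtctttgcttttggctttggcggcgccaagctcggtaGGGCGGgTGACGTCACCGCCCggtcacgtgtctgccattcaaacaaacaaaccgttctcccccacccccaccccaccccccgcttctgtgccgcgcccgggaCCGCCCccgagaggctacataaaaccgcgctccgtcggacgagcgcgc
Dusp10 promoter, chr1:184034131-184034380, plus strand: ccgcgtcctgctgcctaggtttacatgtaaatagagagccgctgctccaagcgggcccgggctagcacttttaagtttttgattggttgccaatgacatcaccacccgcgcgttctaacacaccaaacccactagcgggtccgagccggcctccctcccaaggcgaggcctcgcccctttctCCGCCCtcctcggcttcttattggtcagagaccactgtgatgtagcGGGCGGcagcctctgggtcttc
Dusp6 promoter, chr10:99262981-99263230, plus strand: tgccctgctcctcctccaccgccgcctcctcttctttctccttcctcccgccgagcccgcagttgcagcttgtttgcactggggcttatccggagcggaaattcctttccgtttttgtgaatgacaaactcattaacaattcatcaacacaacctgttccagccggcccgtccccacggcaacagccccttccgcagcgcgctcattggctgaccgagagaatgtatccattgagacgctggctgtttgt
Dusp14 promoter, chr11:84068358-84068607, minus strand: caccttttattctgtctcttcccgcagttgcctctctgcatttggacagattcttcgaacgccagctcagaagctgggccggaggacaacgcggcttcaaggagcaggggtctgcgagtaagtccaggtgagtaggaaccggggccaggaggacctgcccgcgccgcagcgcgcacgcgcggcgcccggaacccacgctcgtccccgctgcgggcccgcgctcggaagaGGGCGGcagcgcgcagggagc

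The motifs searched were the full glucocorticoid response element, which is 2 inverted copies of AGAACA spaced by 3 bases of any kind, its single copy AGAACA, the cyclic AMP response element TGACGTCA and its core TGACG, the AP-1 site TGACTCA, the GC box GGGCGG and the TATA box TATAAA. The single copy and the core lie within the full elements, so a full element counts under both. Of the 8 promoters, that of Dusp1 alone held TGACGTCA, from 143 to 136 bases before the start, with a GC box on either side. This element was found in 1.55% of 32851 promoters of the same length. The Dusp1 promoter held another TGACG from 191 to 187 bases before the start, and TGACG was also found in the Dusp5 and Dusp16 promoters, against 17.8% of all promoters. GC boxes were found in 6 of the 8, those of Dusp1, Dusp2, Dusp5, Dusp10, Dusp14 and Dusp16, against 32.7% of all promoters. The Dusp6 promoter printed above held no match to any of these motifs. None of the 8 windows held the full glucocorticoid response element or its single copy, which were found in 0.00913% and 16.1% of all promoters. The AP-1 site and the TATA box were likewise in none of the 8, against 4.46% and 12.4% of all promoters. A match is a description of letters, and sites outside these windows were not analysed here.

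Dusp1 encodes MKP-1, a nuclear phosphatase that prefers p38 and JNK. Its log2 value lay between 7.03 and 7.57 in vehicle with a median of 7.31, and between 9.11 and 10.06 in dexamethasone with a median of 9.28. The lowest dexamethasone array thus lay above the highest vehicle array. The rise was 2.15 on the log2 scale (SE 0.17, 95% interval 1.76 to 2.54, adjusted p = 8.43e-05) and was seen in 6 of 6 cultures. By rank it was the 23rd largest rise of the 24265 genes tested. Its size differed between cultures, at 2.58, 1.91, 3.03, 1.90, 1.95 and 1.55 for cultures 1 to 6, which is 2.92-fold at the least and 8.16-fold at the most. Culture 3 had the lowest vehicle value and the highest dexamethasone value, and culture 6 had the highest vehicle value and the lowest dexamethasone value. The spread in dexamethasone, 0.39 (SD, n = 6), exceeded that in vehicle, 0.17, and this difference in spread was not tested.

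**Figure D1:**
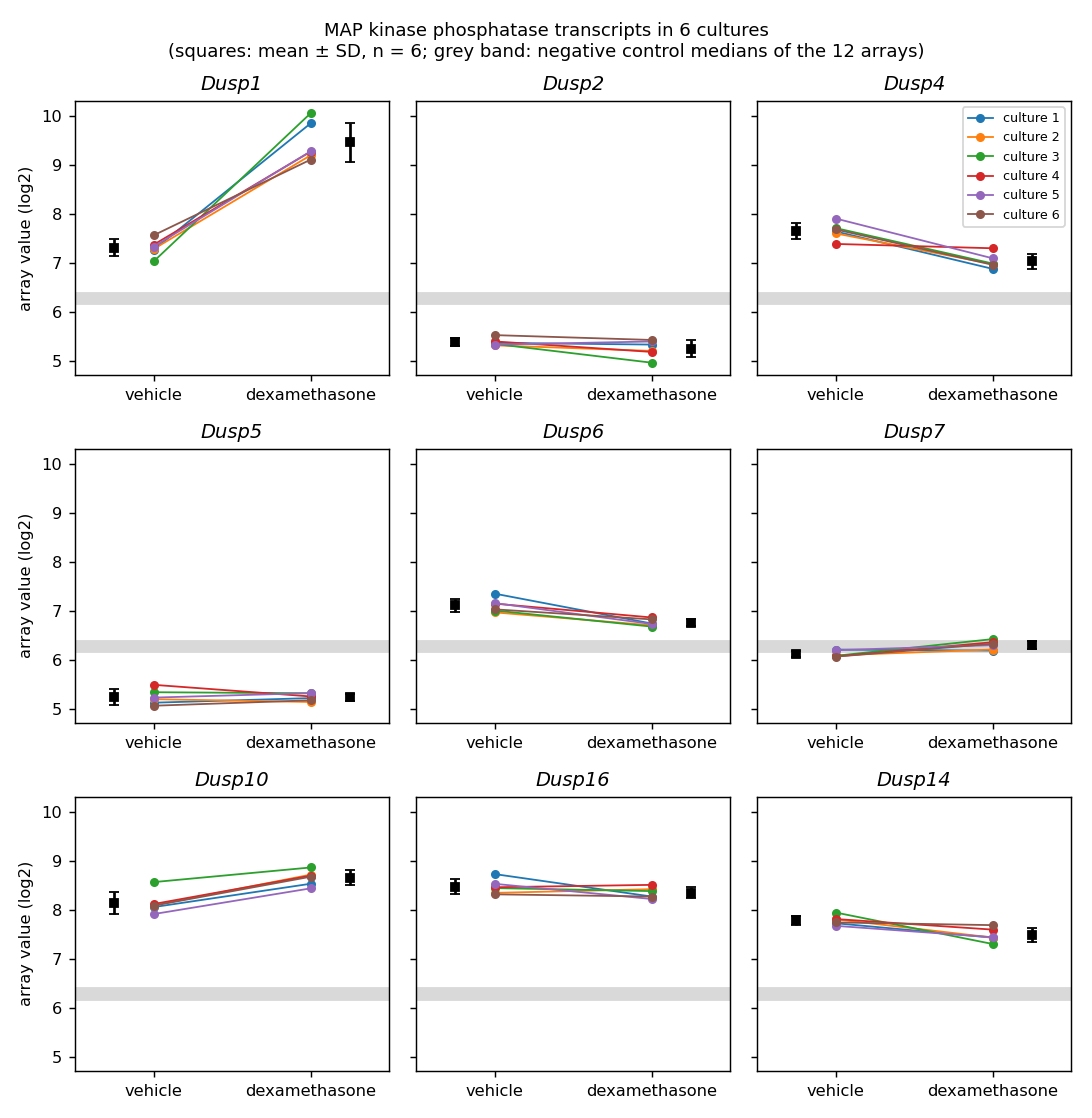
The log2 array value of each phosphatase gene is plotted for vehicle and dexamethasone, 1 panel per gene, with lines joining the arrays of a culture, squares for the mean ± SD (n = 6) and a grey band for the range of negative control medians, 6.15 to 6.39. Every Dusp1 line climbs, from 7.03 to 7.57 in vehicle to between 9.11 and 10.06, and the Dusp2 and Dusp5 values lie below the band; heights are not comparable between genes, since each probe set has its own response.

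Dusp2, Dusp4 and Dusp5 encode the other inducible nuclear phosphatases. Dusp4, or MKP-2, acts on ERK and JNK and is a target of ERK signalling. Its values ran from 7.39 to 7.91 in vehicle (median 7.67) and from 6.88 to 7.30 in dexamethasone (median 6.98), without overlap. The change was -0.62 (SE 0.09, adjusted p = 0.0027), lower in 6 of 6 cultures. In 5 cultures it lay between -0.81 and -0.63, and in culture 4 it was -0.09. Culture 4 had both the lowest vehicle value and the highest dexamethasone value of Dusp4. With cultures 2 and 3 left out, the change was -0.60 with an adjusted p of 0.0529. Dusp2, known as PAC-1 in activated lymphocytes, was dimmer than the negative control median on each of the 12 arrays, at 5.38 ± 0.08 in vehicle and 5.25 ± 0.17 in dexamethasone (SD, n = 6). Its change of -0.13 had a 95% interval from -0.27 to 0.01 and an adjusted p of 0.216. Dusp5, which is specific for ERK, was likewise dimmer than that median on each array, at 5.24 ± 0.15 and 5.24 ± 0.07. Its interval ran from -0.13 to 0.12 (adjusted p = 0.979). A change of transcripts this dim may not have been detectable on these arrays. The kinase gene Map3k6, also under that median on every array, was nevertheless called, with a change of 0.52 (limma adjusted p = 0.0013).

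Dusp6 and Dusp7 encode cytoplasmic phosphatases that act on ERK. Dusp6, or MKP-3, a feedback inhibitor induced by ERK itself, ran from 6.97 to 7.35 in vehicle (median 7.09) and from 6.68 to 6.87 in dexamethasone (median 6.74). The highest dexamethasone array lay below the lowest vehicle array. The change was -0.35 (SE 0.06, adjusted p = 0.0057), lower in 6 of 6 cultures, with the largest fall in culture 1 at -0.61 and the smallest in culture 6 at -0.21. Dusp7, its close relative, was 6.12 ± 0.07 in vehicle and 6.30 ± 0.09 in dexamethasone, higher in 5 of 6 cultures. It was under the negative control median in 6 of 6 vehicle arrays and in 3 of 6 dexamethasone arrays. Its change of 0.18 had a 95% interval from 0.05 to 0.31, which is not adjusted for the number of genes, and an adjusted p of 0.0757. That p was 0.0368 without the culture block, 0.0226 with culture as a random effect and 0.0468 without culture 1. The transcripts of this pair of related ERK phosphatases therefore had changes of opposite sign, and only that of Dusp6 passed the threshold; the difference between the 2 changes was not tested.

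Dusp10 and Dusp16 encode phosphatases of JNK and p38. Dusp10, or MKP-5, ran from 7.91 to 8.57 in vehicle (median 8.09) and from 8.44 to 8.86 in dexamethasone (median 8.69). The groups overlapped through culture 3 alone, whose vehicle value of 8.57 was above the dexamethasone values of cultures 1 and 5. Within cultures the rise was regular, between 0.30 and 0.63, with a mean of 0.52 (SE 0.05, adjusted p = 3.33e-04), in 6 of 6 cultures. Dusp16, or MKP-7, which prefers JNK, was 8.47 ± 0.15 in vehicle and 8.35 ± 0.11 in dexamethasone, lower in 4 of 6 cultures. Its change of -0.12 had a 95% interval from -0.30 to 0.05 and an adjusted p of 0.335. The largest falls of Dusp16 were those of culture 1 at -0.46 and culture 5 at -0.31, while the other cultures lay between -0.06 and 0.08.

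Dusp14 encodes a small atypical phosphatase that lacks the kinase-binding domain of the others. It ran from 7.67 to 7.94 in vehicle (median 7.77) and from 7.30 to 7.69 in dexamethasone (median 7.44). The groups overlapped only in that the highest dexamethasone value, in culture 6, lay just above the lowest vehicle value, in culture 5. The change was -0.30 (SE 0.07, adjusted p = 0.0279), lower in 6 of 6 cultures, from -0.06 in culture 6 to -0.64 in culture 3. This call was the least secure of the 5: leaving out any one of cultures 1 to 5 took the adjusted p to between 0.0525 and 0.0778, with the change between -0.32 and -0.23. Without cultures 2 and 3 together the change was -0.20 with an adjusted p of 0.128.

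**Figure D2:**
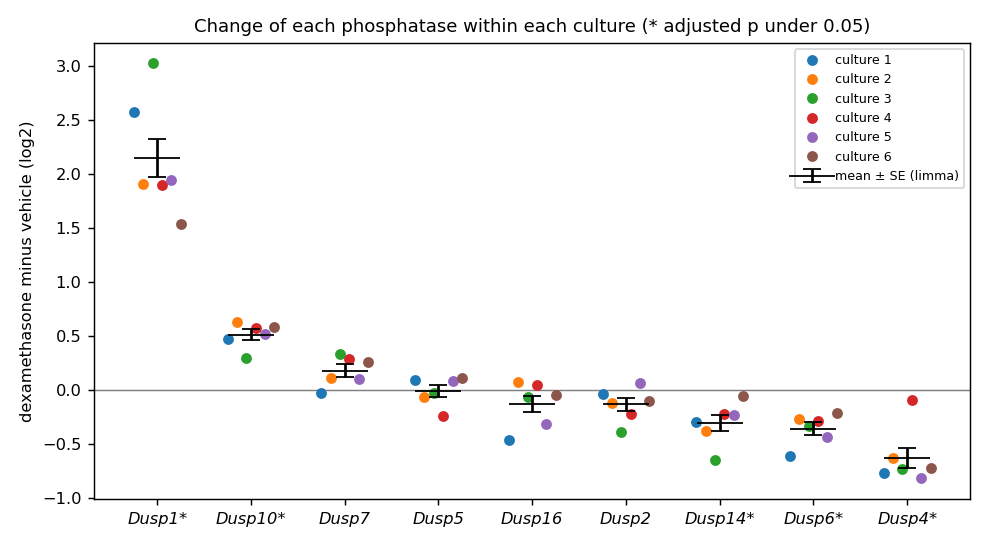
The change from vehicle to dexamethasone (log2) is plotted for each phosphatase gene in each of the 6 cultures, with bars for the mean and SE from limma and an asterisk for an adjusted p under 0.05. Dusp1 lies between 1.55 and 3.03, Dusp10 between 0.30 and 0.63, and the 6 points of Dusp4, Dusp6 and Dusp14 all lie below 0, with culture 4 of Dusp4 at -0.09.

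The groups did not overlap for 3 of the 9 members, Dusp1, Dusp4 and Dusp6, beside 6.73% of all genes tested. Dusp1 was the member higher without overlap, beside 4.10% of all genes, and Dusp4 and Dusp6 were the lower ones, beside 2.63%. The sign of the change was the same in all 6 cultures for 5 of the 9 members and for 19.5% of all genes tested. Those members were the 5 called ones. No member reached the 95th percentile of the negative control probe sets on any array, which lay between 9.98 and 10.39. The share of all genes reaching it was not computed. The negative control median was exceeded on all arrays by 6 of the 9 members. Among all 30142 genes with a named probe set, 13050 exceeded it on at least 6 of 12 arrays. No culture was extreme for every member. Culture 3 combined the largest rise of Dusp1 with the largest fall of Dusp14 and the smallest rise of Dusp10. It also had the largest fall of Dusp2, at -0.38, and the largest rise of Dusp7, at 0.34, both dim transcripts. Culture 1 had the largest falls of Dusp6 and Dusp16. Vehicle SDs ran from 0.07 for Dusp7 to 0.22 for Dusp10, around the median of 0.12 for all genes tested.

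The genes whose 6 within-culture changes lay closest to those of Dusp1, by root mean square distance on the log2 scale, were Zbtb16 at 0.27, Orm3 at 0.32, E230001N04Rik at 0.38, Fkbp5 at 0.39 and Dpy19l4 at 0.42. Their mean rises ran from 1.97 to 2.37. Orm3 and E230001N04Rik were under the negative control median on every vehicle array and over it on every dexamethasone array. Closest to Dusp4 were Slc39a6 at 0.14, Slc7a5 at 0.16, Ehd3 at 0.17, Ruvbl1 at 0.17 and Srm at 0.18, with mean changes from -0.68 to -0.55. Likeness was measured over the 6 cultures among all 24265 genes tested and carries no test.

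Of 26 further dual specificity phosphatases listed, 22 were tested and 0 passed the threshold in limma, while 7 had an unadjusted p under 0.05. Over the 18 other settings, all of them limma fits, between 0 and 2 of them were called higher and between 0 and 2 lower. Nearest to the threshold was Dusp12, which was 7.40 ± 0.07 in vehicle and 7.24 ± 0.04 in dexamethasone without overlap (-0.16, SE 0.04, adjusted p = 0.0501). Dusp8 and Dusp9, the remaining typical MAP kinase phosphatases, were dim: Dusp9 was under the negative control median on 12 arrays and Dusp8 on 11, with adjusted p of 0.749 and 0.187. The median change of the 22 was -0.02, against -0.01 for all genes tested. Of 9 tested MAP kinase phosphatases from other families, Ppm1d, a serine and threonine phosphatase induced by p53 that acts on p38, rose from 9.54 ± 0.16 to 10.09 ± 0.09 (0.55, SE 0.08, adjusted p = 0.0019). The other 8 did not pass.

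Among the MAP kinase genes themselves, 0 of 12 tested passed in limma, and 2 had an unadjusted p under 0.05. Over the other settings between 0 and 1 were lower and 0 higher. Mapk14, the main p38 kinase, was 12.55 ± 0.08 and 12.68 ± 0.17 (adjusted p = 0.141), and the JNK kinases Mapk8 and Mapk9 changed by -0.06 and -0.10 with adjusted p of 0.549 and 0.195. Mapk4, Mapk10, Mapk11, Mapk12, Mapk13 and Mapk15 were under the negative control median on every array.

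Upstream, 7 of 17 receptors, adaptors and RAS genes rose and 2 fell. The docking protein Gab3 rose by 0.78, the phosphatase Ptpn11 (SHP2), which is needed for RAS activation, by 0.64 and the RAS exchange factor Sos1 by 0.45, while the small GTPase Mras fell by 0.84. Adjusted p was at most 5.33e-04 for these 4, and each moved in 6 of 6 cultures. Of 23 RAF and MAP3 kinases, 4 rose and 1 fell. Map3k6, the largest at 0.52, was under the negative control median on every array; Map3k5 (ASK1) and Araf rose by 0.22 and 0.20, and Taok3 fell by 0.24. Of 6 tested MAP2 kinases 1 rose: Map2k3, which activates p38, went from 11.69 ± 0.10 to 12.46 ± 0.12 (0.77, SE 0.06, adjusted p = 7.9e-05), and without culture 4 another MAP2 kinase was called, making 2. Of 13 scaffold genes Ksr1 rose by 0.26, and Lamtor3 and Tab2 fell by 0.34 and 0.16. Of the RAF and MAP3 kinases 1 rose, not 4, without any one of cultures 1 to 5 and also without the culture block, and 1 rose and 3 fell after quantile normalization. Leaving out any one of cultures 1 to 5 ended the calls of Map3k5 and Araf (adjusted p from 0.0628 to 0.122), and Tab2 lost its call without any one culture (0.0729 to 0.109). Ksr1 lost its call without culture 2, 3 or 4 (adjusted p from 0.074 to 0.0771).

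Downstream, 3 of 6 tested kinases that MAP kinases activate rose and 0 fell. They were Mknk1 (0.75, SE 0.05) and Mknk2 (0.48, SE 0.08), which phosphorylate the translation factor eIF4E, and Mapkapk3 (0.69, SE 0.05), a kinase activated by p38. Of 18 transcripts that ERK induces in many cells, 3 rose, 2 fell and 13 did not pass. The ephrin receptor Epha4 rose from 7.51 ± 0.26 to 9.34 ± 0.16, a 3.56-fold change. The early response factors Egr1 and Myc rose by 0.56 and 0.38, while Srf fell by 0.51. Without culture 1, 4, 5 or 6 the number that fell was 1.

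Other brakes on the pathway also went both ways. Of 20 tested RAS and ERK inhibitors, 2 rose, 3 fell and 15 did not pass. Without culture 1 the risers in this list numbered 4. The RAS GTPase-activating protein Rasal3 rose by 0.41 and Lztr1, an adaptor for RAS degradation, by 0.22. Rasa3, a GTPase-activating protein for RAS and RAP1, fell by 0.63, the ERK inhibitor Spred2 by 0.43 and Rasa1 by 0.22. The sprouty genes Spry1 and Spry2, which are feedback inhibitors like Dusp6, had changes of 0.16 and 0.20 with adjusted p of 0.0832 and 0.171. Of 7 tested RNA-binding proteins of kinds that control short-lived mRNAs, 3 rose and 1 fell. Zfp36l2 rose from 12.04 ± 0.13 to 14.13 ± 0.14, a 4.26-fold change, Zfp36l1 by 0.75 and Zfp36, which encodes tristetraprolin and binds AU-rich mRNAs including that of Dusp1, by 0.30, whereas Hnrnpd fell by 0.34. The call of Zfp36 ended without culture 1, 2, 3, 4 or 6 (adjusted p between 0.0558 and 0.0942).

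Over the 11 pathway lists together, without the 9 members, 25 of 153 tested genes rose and 11 fell, 23.5% in all beside 12.0% of all genes, with a median change of 0.01. After quantile normalization the numbers were 21 and 19. With cultures 2 and 3 left out they were 13 and 9. The share of all genes called depends on the filter on dim genes. It was 20.4% with the filter at the 50th percentile of the array and 26.3% at the negative control median. How far brightness accounts for the difference between 23.5% and 12.0% was not tested, and the lists were chosen with earlier results of these data known.

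**Figure D3:**
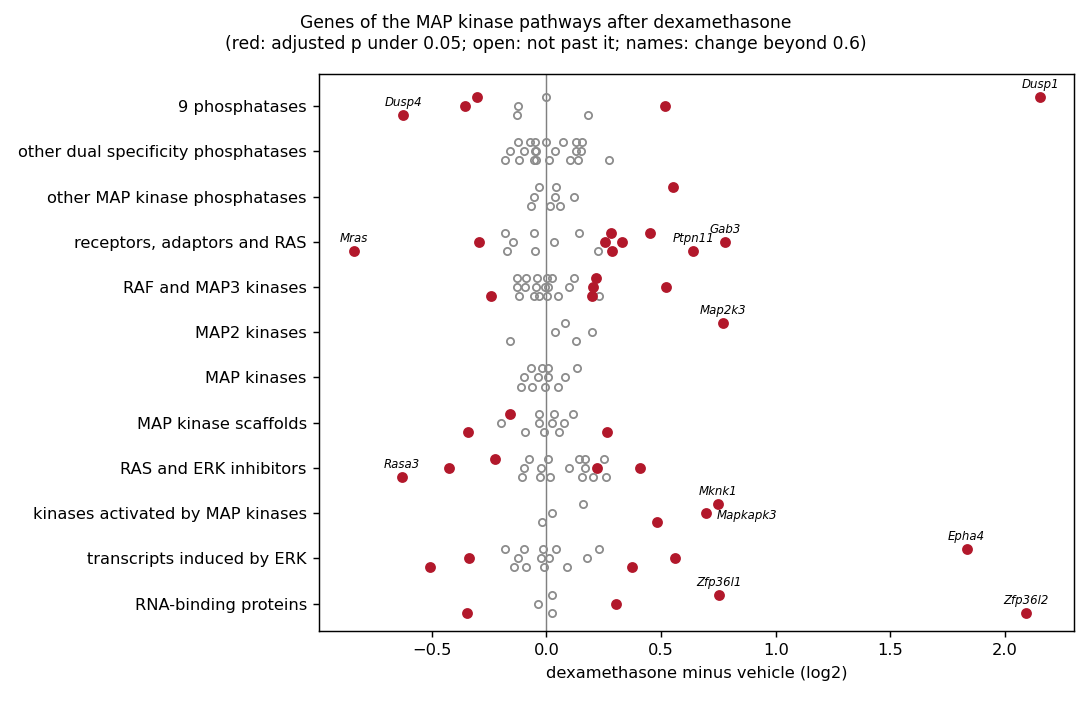
Each point is the change of 1 tested gene from vehicle to dexamethasone (log2, mean over 6 cultures) in the 9 phosphatases and in 11 lists of MAP kinase pathway genes, filled red for an adjusted p under 0.05. Dusp1 at 2.15, Zfp36l2 at 2.09 and Epha4 at 1.83 stand apart on the right, Mras at -0.84 is lowest, and the MAP kinases and the other dual specificity phosphatases hold no red point.

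The cells carried the defining genes of megakaryocytes: 13 of 15 listed markers had a named probe set, and all 13 lay above the negative control median on every array, from Gata1 at 10.90 ± 0.07 to Pf4 at 18.94 ± 0.03 in vehicle. Of the 13, 2 rose and 2 fell. Tubb1, the beta tubulin of platelets, fell by 1.14 (SE 0.06, adjusted p = 4.71e-06) in 6 of 6 cultures and the thrombin receptor gene F2rl2 by 0.21, while Gp9 rose by 0.44 and Gata1 by 0.29. The markers that fell numbered 1 without culture 2, 3, 5 or 6. The part of these shifts in the members' changes was not tested. Over all probe sets, r between arrays of 1 treatment was 0.990 to 0.994. Among markers of other cells, 4 of 10 neutrophil genes were called lower with dexamethasone and 0 higher, beside 4.56% and 7.39% of all genes. Those 4 were S100a8, S100a9, Ltf and Camp, by 0.51, 0.77, 0.46 and 0.49. Ltf was under the negative control median on 4 of 6 vehicle and 6 of 6 dexamethasone arrays. The list was not uniform: Ctsg was higher in 6 of 6 cultures without passing in limma (0.34, adjusted p = 0.0969), and Ngp was higher in 3 cultures and lower in 3. The number of neutrophil genes that fell was 2 without culture 1, 3 or 4, 2 with culture as a random effect, and 1 without the block or without cultures 2 and 3. The log2 of their list's summed level ran from 11.81 to 14.54 in vehicle and from 10.53 to 13.87 in dexamethasone. Its part in the members' changes was not tested. Of the other marker lists, 1 of 10 monocyte and macrophage genes and 1 of 8 stromal and endothelial genes fell, 1 of 7 mast cell and basophil genes rose and 1 fell, and 0 of 3 erythroid and 0 of 9 lymphocyte genes passed in limma, with 1 and 3 of them at an unadjusted p under 0.05.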

How the data were processed

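The values were the authors' deposited log2 values, 72688 probe sets on each of 12 single-colour arrays. That they are log2 was judged from their range, although array maxima of 19.82 to 19.93 exceed the usual scanner range, so folds rest on this judgement. The sources used here do not give the background correction, normalization, summarization or genome build. Per the labels' protocols, 50 ng of RNA was amplified and labelled with biotin. Array medians lay between 5.57 and 5.67, and the values were used as deposited. The number of arrays limits the precision.

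A platform table named 30604 probe sets with 1 symbol, and RefSeq gene numbers of GRCm38.p6 updated symbols. Of several probe sets for a gene, the one with the highest 12-array mean was used. Genes above the 25th percentile of their array on at least 6 arrays were tested with limma 3.58.1 in R 4.3.3 (two-sided, culture as a block, Benjamini-Hochberg over all genes tested). The script was tested on simulated data. The treatment protocol states that cultures were split. Deviations from group means correlated at 0.16 on average between arrays of the same culture (0.05 to 0.25) and at -0.03 between cultures. Members, lists and tests were chosen with earlier results of these data known. Genes named were the members, up to 4 called genes per list with the largest change, any gene of the phosphatase, MAP kinase and inhibitor lists, and the 5 genes nearest to the members with the largest rise and fall; markers were named where a result turned on them.

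Alternatives were 2 normalizations, other block, variance, filter, floor and probe set rules, and leaving out cultures.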

Additional observations from a re-analysis of the deposited data

Results flagged for a closer look

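For each member, the 6 vehicle values, the 6 dexamethasone values and the 6 within-culture changes were searched for a value far from the others, with Dixon's ratio of gap to range at its 95% limit. Of these 27 sets, 2 held such a value, and chance gives about 1 in 20. The change of Dusp4 in culture 4 was -0.0885, and the next smallest fall was -0.63 in culture 2. The vehicle value of Dusp10 in culture 3 was 8.57, and the next highest was 8.12 in culture 4. Without culture 4 the change of Dusp4 was -0.73, and without culture 3 that of Dusp10 was 0.56. Both kept their calls there.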

How the results depend on the processing

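Over 18 other settings, the changes of Dusp1, Dusp6 and Dusp10 kept their direction and call in every one, with ranges of 1.98 to 2.27, -0.39 to -0.30 and 0.46 to 0.56. The call of Dusp4 ended only with cultures 2 and 3 left out, a setting chosen after seeing the data, and that of Dusp14 ended under 7 settings, 6 of them with fewer cultures and 1 with all probe sets fitted (adjusted p = 0.109). Dusp5, dim and uncalled, changed sign, to 0.0292 after quantile normalization, 0.0174 after centring on array medians, 0.0146 without cultures 2 and 3, and between -0.0261 and 0.0436 with 1 culture left out. The members called lower were 2 or 3 with 1 culture left out and 1 without cultures 2 and 3. Without the replicate block 3 members were higher and 3 lower, and as a random effect also 3 and 3. The block changed no member's call except that of Dusp7. Over all genes, the fit without the block called 1534 higher and 918 lower. Higher genes numbered 1163 to 1520 with 1 culture left out, 732 without cultures 2 and 3, and 807 with all probe sets fitted, where more features enter the adjustment. Lower genes numbered 711 to 853, 538 and 408 there, 1738 after quantile normalization and 726 after centring, and the cause was not tested. Pathway genes called higher were 14 with all probe sets fitted and 13 without cultures 2 and 3, and those called lower were 7 with all probe sets fitted and 19 after quantile normalization. Of 36 pathway genes called, 0 changed direction under any setting, and 83 of 647 values lost the call. Dusp2, Dusp5 and Dusp7 were the dimmest members, and how far dimness limits their results was not tested.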
